A study of Mus musculus with 7 samples.

Results

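The collagen genes of mouse gonadal fat are described here, chosen by name: every symbol in the gene column made of Col, a number, the letter a and a number. The table held 44 such genes among 25791 loci with a gene name and 35534 loci in all. A symbol with several loci was given its locus with the highest mean FPKM (fragments per kilobase of transcript, scaled to the mapped reads of a library), and measured values played no other part in the choice. RNA-seq was done on gonadal fat of male CD-1 pups on postnatal day 21. The dams were fed corn oil stripped of tocopherol, alone for the 3 control pups or with 0.2 mg/kg body weight per day of BDE-47 (2,2′,4,4′-tetrabromodiphenyl ether, a brominated flame retardant) for the 4 exposed pups, beginning on pregnancy day 8 and ending on postpartum day 21. Each pup came from a different litter, and the fat pad of the right side was used. Another control library, with fewer reads, was excluded by the authors and is not analysed here. The pups received BDE-47 through the dam, so the group name gives the dose of the dam and not that of the fat.

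The table gives 1 FPKM value per group, which the authors obtained from all mice of the group, and no value per mouse. The spread between mice is therefore unknown, no test across mice was possible, and all values below are the authors' group values set side by side, with control first where 2 values follow a gene. The depth of each library is also unknown from the table. In such bulk tissue, fewer cells of a type cannot be told apart from less RNA per cell. The tissue label was checked against adipocyte markers. Fabp4, the fatty acid-binding protein of fat cells, was at 32996 FPKM in controls and at 31652 FPKM with BDE-47, and Adipoq, the adiponectin gene, was at 3692 and 3666 FPKM. Genes of other tissues also differed between the groups: BDE-47 values were at least 2-fold below control in 9 of 10 hepatocyte markers and in all 5 epididymis markers above 1 FPKM. That level was passed in controls alone by the 5 epididymis markers and by Apob, Fga and Cps1, which favours lower BDE-47 ratios. Of all named loci above it in at least 1 group, 4.24% were at least 2-fold lower. Alb, the albumin gene of liver, was at 362 FPKM in controls and at 24.6 FPKM with BDE-47, and the locus that Serpina1a shares with its near-identical copies was at 247 and 179 FPKM. The locus that Crisp1, a secreted protein of the epididymis, shares with Crisp3 was at 18.6 and 0.171 FPKM. Defb38, a defensin, was at 10.9 FPKM in controls and listed at 0 with BDE-47. Of all 10 epididymis markers, 4 were at 0 in 1 group and 1 in both. Below 1 FPKM in both groups, Spag11b and Cst8 were higher with BDE-47, and Rnase10 and Lcn8 were lower.

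Collagens are secreted proteins of 3 chains wound into a triple helix, which requires a glycine in each triplet of residues. Fibrillar collagens (types I, II, III, V, XI, XXIV and XXVII) build the fibrils of connective tissue, type IV forms the sheet of the basement membrane, and type VI forms beaded filaments that link cells to the matrix around them. Fibril-associated collagens sit on the surface of fibrils, and multiplexins (types XV and XVIII) lie in the basement membrane zone. In fat, each adipocyte is wrapped in a basement membrane, and fibroblasts and adipose progenitors make most of the fibrillar collagen between the cells.

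The classes differ in the repeat that codes for the helix, and the following stretches are shown because they carry the feature that all members share. They are coding sequences of GENCODE vM21 transcripts on GRCm38, written 5′ to 3′ on the gene's own strand, with the glycine codons (GG followed by any base) of the repeat in capitals. The first 4 are 54-base coding exons, from Col1a2 (chr6:4515481-4515534, plus strand), Col3a1 (chr1:45325360-45325413, plus strand), Col6a1 (chr10:76719623-76719676, minus strand) and Col6a3 (chr1:90791924-90791977, minus strand). The last is from coding exon 21 of Col4a1 (chr8:11235141-11235200, minus strand) and spans a break of 6 bases in the repeat, after which the glycine codons resume.
Col1a2: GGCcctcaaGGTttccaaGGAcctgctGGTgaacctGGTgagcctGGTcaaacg
Col3a1: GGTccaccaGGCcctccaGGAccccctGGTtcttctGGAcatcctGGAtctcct
Col6a1: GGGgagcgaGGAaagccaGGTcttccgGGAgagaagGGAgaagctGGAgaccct
Col6a3: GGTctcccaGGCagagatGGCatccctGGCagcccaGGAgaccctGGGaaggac
Col4a1: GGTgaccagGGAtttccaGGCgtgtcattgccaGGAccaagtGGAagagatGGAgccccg

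In the 7 fibrillar genes past the filter described next, the longest unbroken run of this repeat held 217 to 344 triplets, and 76.6 to 90% of the internal coding exons were a multiple of 9 bases long. The 6 type IV genes had longest runs of 39 to 66 triplets and 22 to 27 separate runs. In the 5 type VI genes the longest run was 37 to 87 triplets, and the repeat made up 10 to 31.9% of their codons. These features come from the annotation alone and say nothing of the exposure.

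Nearly all collagens that were abundant in the fat had lower group values in BDE-47-exposed pups than in controls, each by a modest amount. After a filter of more than 1 FPKM in at least 1 group, 27 of the 44 collagens and 14262 named loci remained. Of the 27 collagens, 22 had a log2 ratio of BDE-47 over control below 0, where 47.3% of all filtered loci did, and 5 had a ratio above 0, where 50.8% did. None of the 27 was 2-fold higher or 2-fold lower, where 1.04% of all filtered loci were at least 2-fold higher and 4.24% at least 2-fold lower. At a threshold of 1.5-fold, 3 collagens were lower, Col12a1, Col6a3 and Col5a3, against a background of 8%, and 0 were higher against 2.73%. The median log2 ratio was −0.31 over the 27 collagens and 0.01 over all filtered loci.

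Among the 18 collagens above 5 FPKM in at least 1 group, 17 were lower in BDE-47 fat, with Col6a6 the exception, and the median log2 ratio was −0.36. Of all named loci at that level, 44.8% were lower and 53.1% higher, with a median of 0.02. Over the loci above 100 FPKM, 60.5% were lower, with a median of −0.05. The 9 collagens at 5 FPKM or less were divided, with 5 lower and 4 higher, and their median was −0.02.

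**Figure D1:**
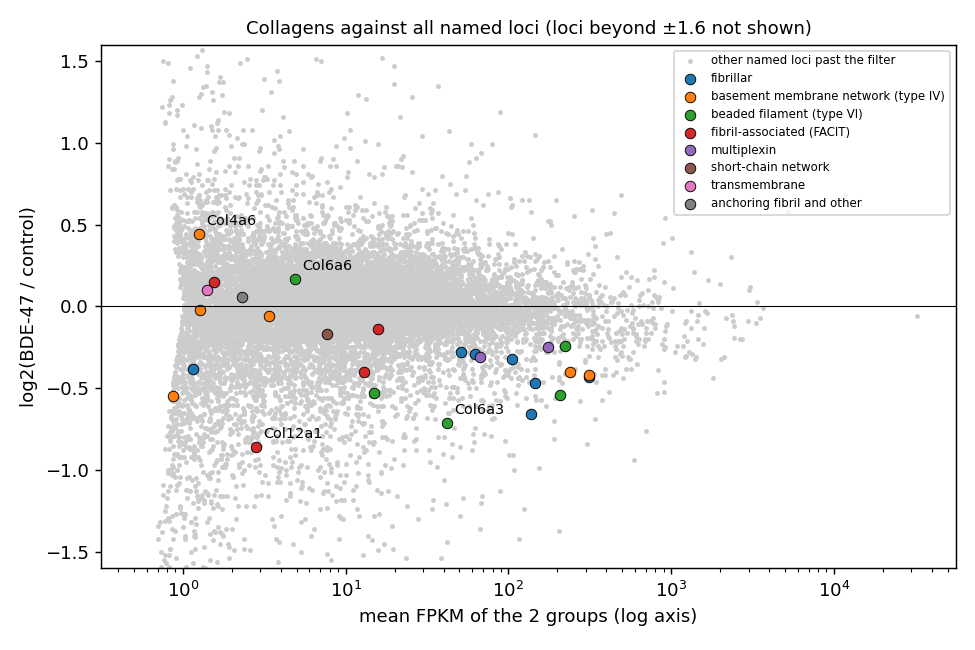
Log2 ratio of BDE-47 over control group FPKM (vertical axis) against the mean FPKM of both groups (horizontal log axis) for the 27 collagens, coloured by class, over all other named loci past the filter in grey. Collagens at the right of the plot lie below 0, while those near 1 FPKM lie on both sides.

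Summed over the 27 genes, collagen FPKM was 2453 in control and 1858 in BDE-47 fat, 1.32-fold lower. The mix of classes was similar in both groups. Fibrillar genes made up 38.3% of the summed collagen FPKM in control and 37.3% in BDE-47 fat, type IV genes 25.9% and 25.8%, and type VI genes 23% and 22.9%. The multiplexins accounted for 10.8% and 11.8%, and the fibril-associated collagens for 1.49% and 1.62%. No spread stands behind these shares.

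**Figure D2:**
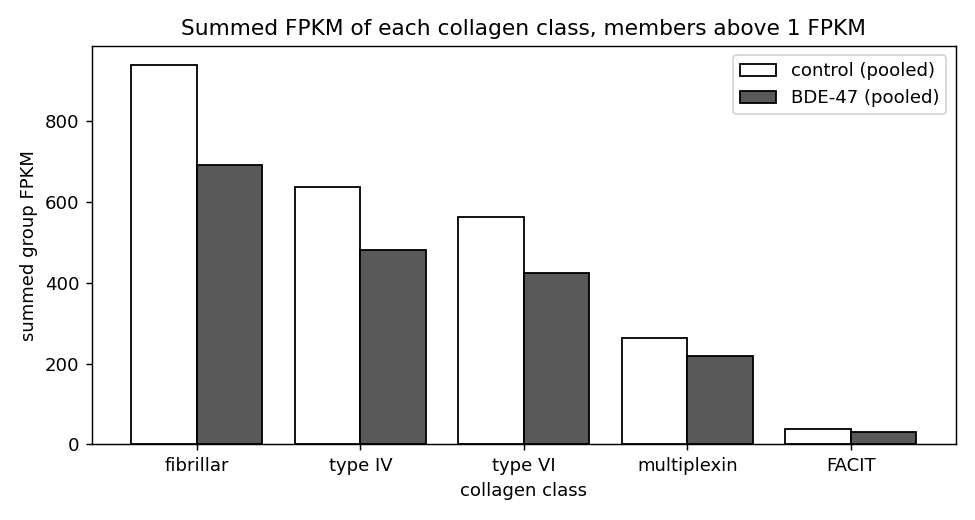
Summed group FPKM of the members past the filter in the 5 collagen classes with the highest sums, as white bars for control and grey bars for BDE-47, on an axis that starts at 0. The fibrillar sum was 940 FPKM in controls and 692 FPKM with BDE-47, and each of the other sums was also lower in BDE-47 fat; pooled values carry no error bar.

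All 7 fibrillar collagens past the filter were lower in BDE-47 fat, with a median log2 ratio of −0.38 and a range of −0.66 to −0.28. Col3a1, the chain of type III collagen of reticular fibres, had the highest level of the class, at 357 FPKM in controls and at 265 FPKM with BDE-47, a log2 ratio of −0.43. On GRCm38 it spans chromosome 1, 45311538 to 45349706. Col1a2 and Col1a1 encode the chains of type I collagen, the main protein of most fibrils. Col1a2 (chromosome 6, 4504814 to 4541544) was at 170 and 123 FPKM (log2 ratio −0.47). Col1a1 (chromosome 11, 94936224 to 94953042) was at 118 and 94.4 FPKM (log2 ratio −0.32). Type I collagen holds more α1 than α2 chains, yet the Col1a1 FPKM was 0.693 times that of Col1a2 in control and 0.768 times in BDE-47 fat.

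Type V collagen lies inside type I fibrils and sets their width. Col5a3, whose chain is found in fewer tissues than the other chains of this type, had the lowest ratio of the fibrillar class. It was at 169 FPKM in controls and at 107 FPKM with BDE-47, 1.58-fold lower (chromosome 9, 20770050 to 20815067). Col5a2 was at 68.6 and 56.1 FPKM and Col5a1 at 56.1 and 46.2 FPKM, with log2 ratios of −0.29 and −0.28. The Col5a1 level was 0.818 times that of Col5a2 in control and 0.824 times in BDE-47 fat, while Col5a3 went from 3.01 to 2.31 times Col5a1. Thus the 2 chains of the common type V molecule kept their proportion in the group values and the α3 chain did not. Col27a1, a fibrillar gene known from cartilage, was near the filter at 1.3 and 1 FPKM and passed it in controls alone.

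In the basement membrane, the chains made by most tissues were lower and the rarer ones were divided. Col4a1 and Col4a2 encode the chains of the common type IV molecule. Col4a1 (chromosome 8, 11198423 to 11312826) had, with Col3a1, the highest level of all collagens, at 357 FPKM in controls and at 267 FPKM with BDE-47, a log2 ratio of −0.42. Col4a2 (chromosome 8, 11312805 to 11449287) was at 272 and 207 FPKM (log2 ratio −0.40). The Col4a1 level was 1.31 times that of Col4a2 in control and 1.29 times in BDE-47 fat.

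These 2 genes lie head to head on opposite strands, with annotated starts 21 bases apart, and their annotated 5′ ends overlap. The window from 250 bases before to 50 after the Col4a1 start (RefSeq, GRCm38.p6, chr8:11312777-11313076, minus strand) is printed for that reason, beside those of Col1a2 (chr6:4505368-4505667, plus strand) and Col3a1 (chr1:45311288-45311587, plus strand), which had ratios close to it. In RefSeq, Col1a2 starts later than in the GENCODE annotation behind its span given above, so its whole window lies inside that span. Capitals mark CCAAT boxes (CCAAT), GC boxes (GGGCGG) and TATA elements (TATAAA), searched on both strands.
Col4a1: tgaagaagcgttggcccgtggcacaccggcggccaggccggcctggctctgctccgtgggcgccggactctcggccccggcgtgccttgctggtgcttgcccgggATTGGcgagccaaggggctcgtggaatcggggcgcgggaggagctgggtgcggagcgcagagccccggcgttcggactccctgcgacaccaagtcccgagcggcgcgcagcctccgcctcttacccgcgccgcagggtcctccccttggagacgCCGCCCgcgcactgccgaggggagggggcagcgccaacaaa
Col1a2: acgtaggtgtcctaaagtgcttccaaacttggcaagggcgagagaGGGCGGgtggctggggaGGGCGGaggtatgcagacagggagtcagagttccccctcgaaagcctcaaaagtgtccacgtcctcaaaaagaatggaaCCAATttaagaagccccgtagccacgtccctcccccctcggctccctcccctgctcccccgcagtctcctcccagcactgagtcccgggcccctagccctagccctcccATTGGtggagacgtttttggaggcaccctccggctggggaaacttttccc
Col3a1: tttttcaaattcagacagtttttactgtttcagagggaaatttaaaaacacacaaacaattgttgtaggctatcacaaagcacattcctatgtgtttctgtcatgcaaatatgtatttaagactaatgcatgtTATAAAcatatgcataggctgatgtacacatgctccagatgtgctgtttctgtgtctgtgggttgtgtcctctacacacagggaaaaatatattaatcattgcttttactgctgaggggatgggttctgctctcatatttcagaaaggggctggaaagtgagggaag

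The Col4a1 window holds a CCAAT box and a GC box, that of Col1a2 holds 2 of each, and that of Col3a1 holds a TATA element and neither of the others. Its GC content is 37.7%, against 74% for Col4a1 and 61% for Col1a2, so the windows of these genes with similar ratios differ in composition. Windows were found for 22 of the 27 collagens. Of their 24 windows, 66.7% held a GC box, 29.2% a CCAAT box and 4.17% a TATA element, where 35.6%, 37.4% and 13.6% of 32817 windows of all genes did. A match is a description of letters and not evidence of a binding site.

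Col4a3, Col4a4, Col4a5 and Col4a6, the chains known from kidney and other special basement membranes, were all below 4 FPKM. Col4a5 was at 3.43 FPKM in controls and at 3.29 FPKM with BDE-47, and its head-to-head neighbour Col4a6 was at 1.06 and 1.44 FPKM, the highest log2 ratio of all 27 collagens at 0.44. Col4a3 was at 1.03 and 0.702 FPKM, the lowest value to pass the filter, which it did in controls alone. Col8a2, just outside it, was at 0.973 and 0.758 FPKM. Col4a4, which starts 72 bases from Col4a3 on the other strand, had 2 loci over the same span, at 1.27 and 1.26 FPKM in the chosen one and 1.39 and 1.13 FPKM in the other. Whether reads were counted by strand is not given in the sources used here, so loci that overlap on opposite strands may share reads.

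Type VI collagen had the lowest median of the classes with several members, −0.53 over 5 genes, of which 4 were lower. By summed FPKM it was not the lowest, with a log2 ratio of −0.410, beside −0.441 for fibrillar and −0.407 for type IV genes. Its core molecule has 1 chain each from Col6a1, Col6a2 and Col6a3. Col6a1 (chromosome 10, 76708792 to 76726168) was at 242 FPKM in controls and at 205 FPKM with BDE-47, a log2 ratio of −0.24. Col6a2, its neighbour, was at 247 and 170 FPKM (log2 ratio −0.54). Col6a3 (chromosome 1, 90765923 to 90843971) also encodes endotrophin, a fragment released from the end of the α3 chain. It was at 52.3 and 32 FPKM, 1.64-fold lower. The level of Col6a1 was 0.979 times that of Col6a2 in control and 1.21 times in BDE-47 fat, and 4.63 and 6.41 times that of Col6a3. The 3 chain genes of this molecule were therefore lower by unequal amounts in the group values, unlike the chains of the common type IV molecule.

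Col6a5 and Col6a6 encode chains that resemble α3 and lie in the same direction on chromosome 9, 27917 bases apart. Col6a5 was at 17.6 FPKM in controls and at 12.2 FPKM with BDE-47, and Col6a6 at 4.63 and 5.21 FPKM, so the neighbours had ratios of opposite sign, −0.53 and 0.17. A second locus of Col6a6 gave 4.41 and 5.03 FPKM. The remaining member, Col6a4, was under the filter at 0.295 and 0.218 FPKM.

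**Figure D3:**
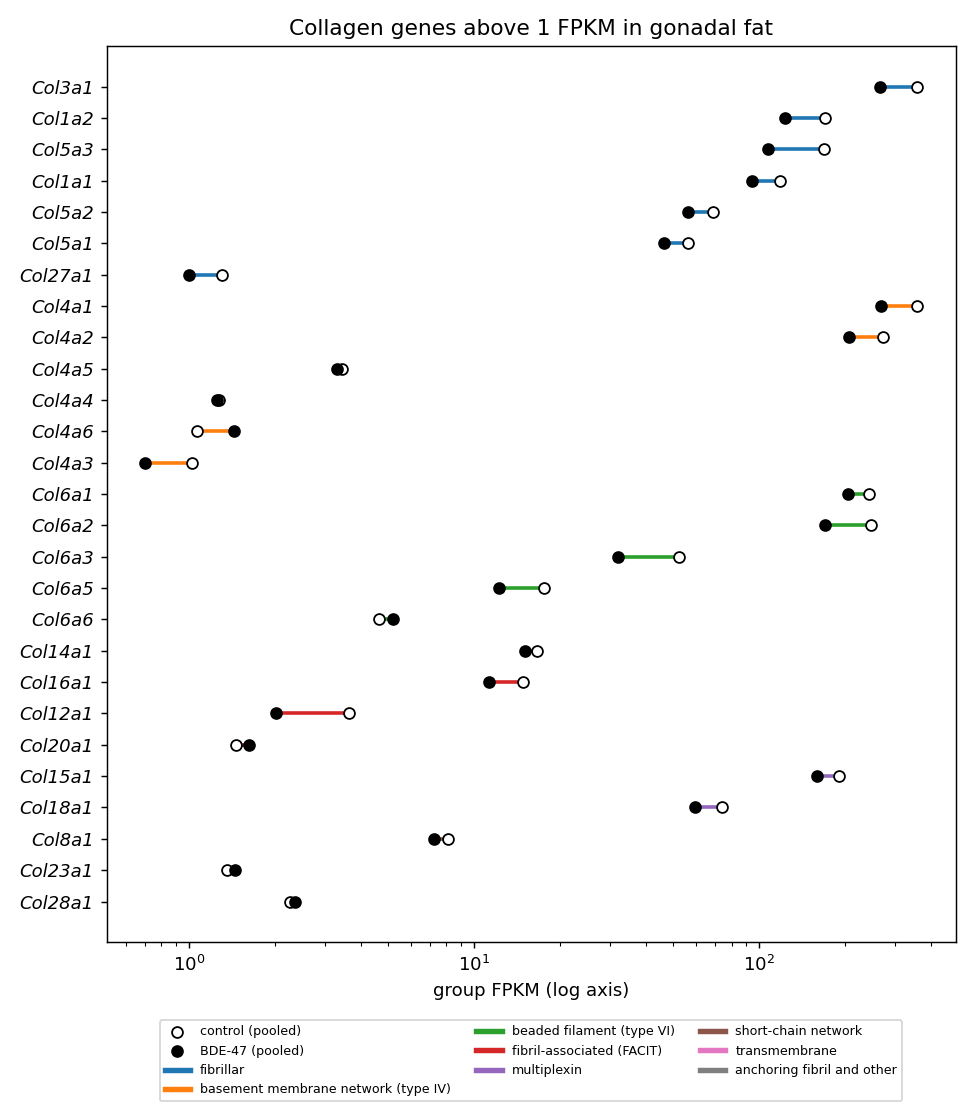
Group FPKM on a log axis for each of the 27 collagens past the filter, grouped by class, with open circles for control, filled circles for BDE-47 and a line joining them. The filled circle lies to the left in 22 genes, and Col4a6, Col6a6, Col20a1, Col23a1 and Col28a1 are the genes in which it lies to the right.

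Of the 4 fibril-associated collagens past the filter, 3 were lower. Col12a1, which binds type I fibrils in tissue under tension, had the lowest log2 ratio of all 27 collagens. It was at 3.66 FPKM in controls and at 2.01 FPKM with BDE-47, a log2 ratio of −0.86 (chromosome 9, 79598991 to 79718831). Col14a1, its close relative, was at 16.7 and 15.1 FPKM, and Col16a1 was at 14.8 and 11.2 FPKM. Col20a1 was at 1.46 and 1.62 FPKM, and its other locus, over the same span, at 1.16 and 0.742 FPKM, so the direction for this gene depends on the locus.

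Both multiplexins were abundant and lower. Col15a1 was at 190 FPKM in controls and at 160 FPKM with BDE-47 (chromosome 4, 47208161 to 47313167), and its other locus at 3.73 and 3.32 FPKM. Col18a1, whose end fragment is endostatin, was at 74 and 59.7 FPKM (chromosome 10, 77052178 to 77166548). Their log2 ratios were −0.25 and −0.31, less far below 0 than those of Col4a1 and Col4a2, with which they share the basement membrane zone. Col8a1, a short-chain collagen of blood vessel walls, was at 8.11 and 7.21 FPKM. Col23a1, which spans the cell membrane, was at 1.36 and 1.45 FPKM, and Col28a1, known from peripheral nerve, at 2.27 and 2.36 FPKM.

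Gene length is set beside the log2 ratio for some of the collagens. Col6a3, Col12a1 and Col6a5 have the longest coding sequences, of 9852, 9195 and 7920 bases. Their ratios were −0.71, −0.86 and −0.53. Col5a3, with a ratio of −0.66, has 5217 coding bases, and Col6a6, with a ratio of 0.17, has 6795. Col4a4 has 5046 coding bases in a transcript of 10108 bases. Its ratio was −0.02 at the chosen locus and −0.30 at the other. The part of transcript length in these differences was not tested.

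The 17 collagens under the filter included those that define cartilage. Col2a1, the main fibrillar collagen of cartilage, was at 0.0328 FPKM in controls and at 0.00317 FPKM with BDE-47, and Col11a1 was at 0.0367 and 0.0356 FPKM. Col10a1, a marker of growth-plate cartilage, was at 0.0941 and 0.0559 FPKM. Col9a1 was listed at 0 in control. The 16 under the filter with values above 0 in both groups had a summed level of 3.27 FPKM in controls and 2.67 FPKM with BDE-47. The number of reads behind such levels is unknown, and ratios there, such as the log2 ratio of 3.9 for Col19a1, were not interpreted.

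The enzymes that make collagen were mostly lower too, by smaller amounts. Of 33 loci of collagen biosynthesis and crosslinking past the filter, 24 were lower and 9 higher, where 47.3% and 50.8% of all filtered loci were. In this list 0 were 2-fold apart, and the median log2 ratio was −0.15, beside 0.01 for all filtered loci. Serpinh1, the chaperone HSP47 that binds the collagen helix in the endoplasmic reticulum, was at 355 FPKM in controls and at 296 FPKM with BDE-47. P4hb, a subunit of prolyl 4-hydroxylase, was at 218 and 198 FPKM, and Ppib, which speeds folding at proline residues, at 106 and 93.1 FPKM. Among enzymes that crosslink collagen outside the cell, the 4 lysyl oxidase genes past the filter were all lower. Lox was at 23.8 and 18 FPKM, Loxl1 at 36 and 28.6 FPKM, Loxl2 at 16.8 and 13.5 FPKM, and Loxl3, the lowest ratio of the list at −0.70, at 6.41 and 3.94 FPKM. Pxdn, the peroxidasin gene, whose enzyme crosslinks type IV collagen, was at 55.3 and 43.7 FPKM.

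Of 14 loci of collagen degradation and uptake, 11 were lower and 3 higher, with a median of −0.14, where 47.3% of all filtered loci were lower. At least 2-fold lower were 2 of the 14, where 4.24% of all filtered loci were. Ctsk, the gene of cathepsin K, a lysosomal protease that cuts the collagen helix, was at 25.1 FPKM in controls and at 11.5 FPKM with BDE-47, a log2 ratio of −1.13. Timp1, an inhibitor of matrix metalloproteinases, was at 15.3 and 6.77 FPKM (log2 ratio −1.18). Ctsl, a lysosomal cathepsin, had the highest mean of the list, at 644 and 530 FPKM. Other inhibitors were not lower to that extent, with Timp2 at 144 and 143 FPKM and Timp4 at 307 and 375 FPKM. The collagenase Mmp14 was at 24.8 and 20.3 FPKM, and the other collagenases on the list, Mmp1a, Mmp8 and Mmp13, were under the filter.

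Collagen receptors and the matrix partners of collagen had medians near 0. The 9 receptor genes had a median of 0, with 4 lower and 4 higher. Itgb1, the β chain of the collagen-binding integrins, was at 172 FPKM in both groups, and Ddr1, a kinase that collagen activates, was at 34.3 FPKM in controls and at 40.2 FPKM with BDE-47. Antxr2, which takes up type VI collagen, was at 25.6 and 30.9 FPKM. The 21 fibril-associated partners had a median of −0.02, with 12 lower and 8 higher, where 47.3% and 50.8% of all filtered loci were. Their summed level was 5035 FPKM in controls and 4499 FPKM with BDE-47. Sparc, which binds collagen and helps its deposition, was at 2610 and 2288 FPKM, Prelp at 719 FPKM in both groups and Dcn, the decorin gene, at 584 and 576 FPKM. The partners that were 2-fold apart were Thbs1, the thrombospondin-1 gene, at 169 and 63.1 FPKM, and Comp, at 0.742 and 1.6 FPKM. Comp passed the filter in BDE-47 fat alone.

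The basement membrane partners of type IV collagen had a median of 0.005 over 18 loci, with 7 lower and 9 higher. Nid1, the nidogen gene whose protein joins laminin to type IV collagen, was at 234 FPKM in controls and at 244 FPKM with BDE-47. Lamc1, a chain of most laminins, was at 71.5 and 78.2 FPKM. Hspg2, the perlecan gene, was at 98.4 and 81 FPKM. The group values of Col4a1 and Col4a2 were thus lower while those of Nid1 and Lamc1 were not. Without values per mouse, the difference between these lists could not be tested.

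Of 17 regulators of collagen genes, 10 were lower and 7 higher, with a median of −0.06. Tgfbr2 was at 31.6 FPKM in controls and at 33.8 FPKM with BDE-47, Prrx1, a transcription factor of mesenchymal cells, at 37.8 and 26.5 FPKM, and Tgfb1, a ligand known to induce collagen genes, at 29.4 and 18.5 FPKM. Runx2, a factor of bone, was 2-fold apart, at 1.21 and 0.5 FPKM, and passed the filter in controls alone. Of 18 genes outside the family whose proteins contain a collagen domain, 14 were lower, with a median of −0.30, where 47.3% of all filtered loci were lower. Highest after Adipoq were C1qa and C1qc, chains of complement C1q, at 121 and 97 FPKM and at 117 and 95 FPKM, which the macrophage list below also holds. Mbl1 and Mbl2, the mannose-binding lectins of liver, were the 2 at least 2-fold lower, at 1.95 and 0.164 FPKM and at 4.29 and 0.448 FPKM. Both passed the filter in controls alone, and 4.24% of all filtered loci were at least 2-fold lower.

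**Figure D4:**
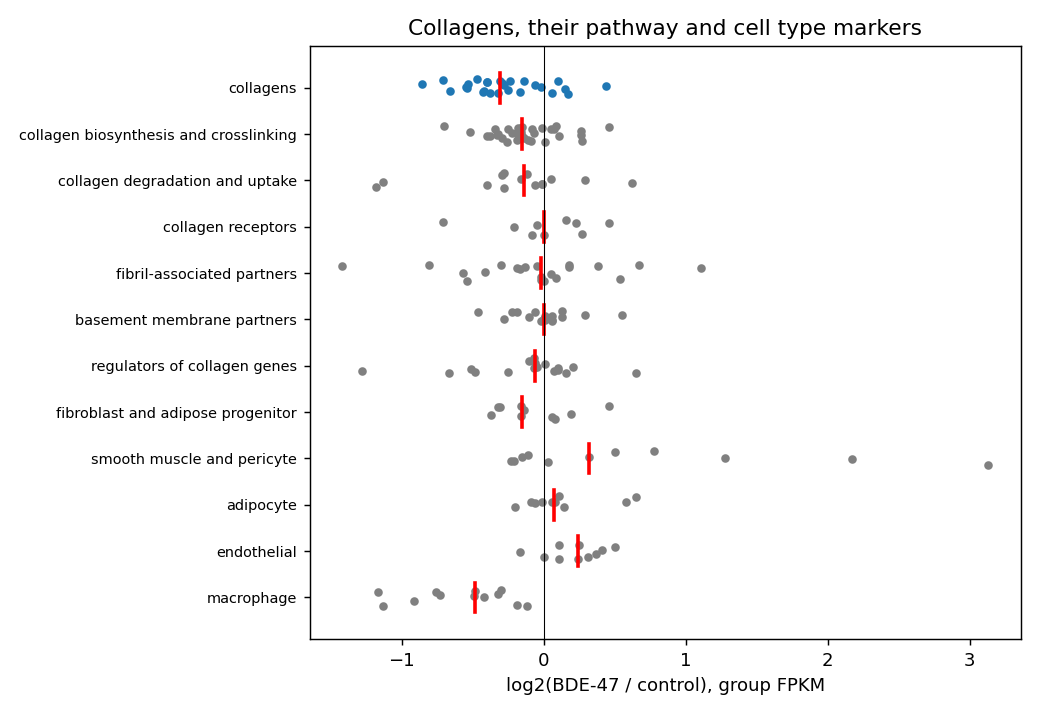
Log2 ratio of BDE-47 over control group FPKM for each gene past the filter, as 1 point per locus, in the collagens (blue) and in the pathway and cell type lists (grey), with the median as a red line; the vertical scatter within a row has no meaning. The collagen median is −0.31, against 0 for the receptors, 0.005 for the basement membrane partners and −0.49 for the macrophage markers.

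Markers of the cells that make or surround collagen differed in several directions. Of 10 fibroblast and adipose progenitor markers, 6 were lower and 4 higher, with a median of −0.15, and their summed level was 381 FPKM in controls and 353 FPKM with BDE-47. Ly6a, which shares a locus with Ly6c1, was at 112 and 102 FPKM, and Cd34 at 66.3 and 69.1 FPKM. All 12 macrophage markers were lower, 2 of them at least 2-fold, with a summed level of 1671 and 1043 FPKM. Of all filtered loci, 47.3% were lower and 4.24% at least 2-fold lower. Lyz2, in a locus shared with Lyz1, was at 885 and 523 FPKM, and C1qa was given above. No marker of the fibroblast or macrophage list was at 0 in either group.

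Of 10 endothelial markers, 8 were higher and 1 lower, with sums of 370 and 403 FPKM. Cdh5 was at 74.5 and 80.4 FPKM and Pecam1 at 67.6 and 73 FPKM. Of 11 smooth muscle and pericyte markers, 7 were higher, 3 of them at least 2-fold, and 4 lower, with sums of 502 and 541 FPKM. Over all filtered loci, 50.8% were higher and 1.04% at least 2-fold higher. Tagln was at 154 and 158 FPKM and Acta2 at 140 and 130 FPKM, while the visceral smooth muscle actin Actg2 was at 1.55 and 13.5 FPKM. The 10 adipocyte markers had a median of 0.07, and Cfd, the adipsin gene, was at 4182 and 6252 FPKM. Of 9 mesothelial markers, 6 were higher and 3 lower, with sums of 109 and 142 FPKM. The highest levels were those of Upk3b at 28.4 and 49.5 FPKM and Krt19 at 19.8 and 26.9 FPKM. The 3 lower ones were Krt8 at 13.6 and 8.4 FPKM, Krt18 at 8.88 and 6.23 FPKM and Wt1 at 5.86 and 4.82 FPKM. In the Schwann cell list, 4 of 5 markers past the filter were higher, among them Pmp22 at 102 and 121 FPKM and S100b at 6.54 and 59.7 FPKM. Cartilage and bone markers gave 2 genes past the filter, Sox9 at 3.53 and 3.39 FPKM and Comp, and 3 at 0 in 1 group. In the skeletal muscle list 3 passed, of which 1 was lower. The 2 higher ones, Actn3 and Tnni2, passed the filter in BDE-47 fat alone, which favours that direction. Acta1 was at 120 and 28.6 FPKM, Actn3 at 0.59 and 1.62 FPKM and Tnni2 at 0.859 and 1.23 FPKM. The part of these cell types in the collagen differences was not tested.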

How the data were processed

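Reads from 7 libraries of poly(A) RNA were filtered and demultiplexed by the authors in BaseSpace, mapped to mm10 with TopHat2, assembled with Cufflinks 2.1.1 and compared with Cuffdiff 2.1.1. Annotation, strand setting and library scaling were not given in the sources used here. As deposited, the table holds log2 FPKM, with 1 value per group and −10 where a group is at 0. Its log2 ratio, q-value and significance columns hold the authors' own comparison and were not used. It has 0 columns of single mice.

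Ratios were computed as the difference of the log2 group columns, with no pseudocount, after a filter of more than 1 FPKM in at least 1 group. Where list members share 1 locus, it counted once. A difference was counted at 2-fold. No test was run. Collagens past the filter were all given values, and so were, in each pathway list, the genes at least 2-fold apart and the 3 with the highest means, and in each marker list the 2 with the highest means. The lysyl oxidases, Pxdn, Mmp14, Actg2, Tnni2, Krt8, Krt18, Wt1 and the collagens named under the filter lie outside this rule. They were chosen after their values were seen, as were the hepatocyte and epididymis markers named without values. The members and lists were chosen with earlier results of these data known. Planned protein features were read as codons, from the transcript with the longest coding sequence, in runs of at least 4 triplets. The calculation was tested on simulated data. Alternatives changed the pseudocount, filter, scaling, locus choice and fold threshold. Python 3.11.15, pandas 2.3.3, numpy 2.4.6 and matplotlib 3.10.9 were used.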

Additional observations from a re-analysis of the deposited data

How the results depend on the processing

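The pseudocounts of 1 and 0.1 FPKM, both rescalings, loci summed by symbol and loci with 1 gene name left every count within 1.5 times, and every class and list median within 0.1 log2, of the value reported. Both rescalings shifted all ratios by 0.01. Without the FPKM filter, 43 collagens entered, of which 1 was at least 2-fold higher and 4 at least 2-fold lower, all of them under 1 FPKM in both groups. The medians were then −0.145 for fibril-associated, −0.36 for short-chain, −0.235 for transmembrane and −0.31 for anchoring and other collagens. Above 5 FPKM, 1 collagen had a log2 ratio above 0, the type IV median was −0.41 and that of the receptors 0.16. At a 1.5-fold threshold, 3 collagens were lower. A pseudocount of 1 FPKM moved 4 collagens toward 0 by over 0.1 log2, at most by 0.297. With all loci of a symbol summed, the sign of Col20a1 changed. No paired analysis was possible because the table holds no values per mouse, and for the same reason no mouse could be left out.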
